A study of Mus musculus with 18 samples.

Results

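The 10 genes described here code for the transcription factor NRF2 (Nfe2l2), its inhibitor (Keap1) and 8 of its antioxidant target genes (Gclc, Gclm, Slc7a11, Srxn1, Txnrd1, Nqo1, G6pdx and Osgin1). They were looked up by symbol, through the GENCODE vM21 annotation, among the 47729 Ensembl gene IDs of a table of normalized counts from mouse liver, and all 10 were found. The livers had undergone ischemia-reperfusion (IR), in which the blood supply is blocked and then restored, or a sham operation. In each surgery there were 3 wild-type (Wt), 3 Il22-/- and 3 Il22bp-/- samples. Il22 codes for the cytokine interleukin-22 and Il22bp for its soluble binding protein. Strain, age, sex and the time after surgery were not given in the sources used here.

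Of the table's 18 columns, 9 have headers that start with IR and 9 with W, followed by a number. W is not spelled out, and it was read as sham because no other samples remained; this holds only if no column comes from outside the series. The headers carry no genotype. The comparison was therefore 9 IR against 9 sham libraries with the genotypes mixed, and the part of the genotypes in the spread within a surgery cannot be told apart from other differences between livers. Nothing beyond the labels says that the samples are separate animals, so the p-values measure the spread between these samples, which may be partly technical.

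NRF2 is held in the cytoplasm by KEAP1, which passes it to a ubiquitin ligase for destruction. Oxidants and electrophiles modify cysteines of KEAP1, and NRF2 then escapes, enters the nucleus and, paired with a small MAF protein, binds antioxidant response elements. This control acts on the NRF2 protein, whereas the values here are RNA levels. In liver the pathway is known for glutathione synthesis, thioredoxin recycling, NADPH supply and the removal of quinones and heme.

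The libraries held 10176617 to 12558179 reads in genes in IR livers and 10716890 to 12763837 in sham livers. Albumin, a defining hepatocyte gene, took 2.86 to 7.48% of the reads of each IR library and 12.9 to 15.9% of each sham library. The summed level of 13 hepatocyte markers lay between 600971 and 957956 normalized counts in IR livers, with a median of 732681, against a median of 2190740 in sham livers. The summed level of 16 neutrophil markers had a median of 1452 normalized counts in IR livers (range 417 to 4925), against 154 in sham livers (range 118 to 236). Markers of cholangiocytes, which line the bile ducts, summed to 850 to 14618 in IR livers and to 374 to 745 in sham livers. On average these sums were mostly Spp1, with a mean of 4289 normalized counts in IR and 408 in sham livers. Injured hepatocytes can also make Spp1, so the sums do not measure cholangiocytes alone. Macrophage and Kupffer cell markers summed to 4124 to 7031 in IR livers and to 8866 to 12844 in sham livers, and lymphocyte markers to 23.9 to 59.2 against 139 to 243. None of these marker genes was at 0 in all libraries. In bulk tissue, fewer cells of a type and less RNA per cell cannot be told apart, and the part of cell makeup in the results that follow was not tested.

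All 10 genes passed the filter on low values (a mean of at least 10 normalized counts over the 18 libraries), and all 10 differed between IR and sham livers at an adjusted p under 0.05. Slc7a11 passed this filter only through the IR livers and so had to differ. Calls were common over the whole table: 75.9% of the 12686 genes tested were called, 38.3% as higher and 37.6% as lower in IR livers. Among the 10 genes, 7 were higher (Keap1, Gclc, Slc7a11, Srxn1, Txnrd1, G6pdx and Osgin1) and 3 were lower (Nfe2l2, Gclm and Nqo1). Without Slc7a11, 6 of 9 were higher. In 5 of the 10 genes, all of them higher, no IR library overlapped any sham library, and the same held in either direction for 40.2% of all genes tested. Without Slc7a11 this was 4 of 9 genes. With the median over all genes at a log2 difference of 0.02, the 10 genes ran from -1.47 (Nqo1) to 3.97 (Slc7a11). The balance of calls over all genes depends on the scaling. It was 4855 higher and 4775 lower as deposited, and 5945 higher and 3695 lower when each library was scaled to the same sum, which moved the median of all genes to 0.25.

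**Figure D1:**
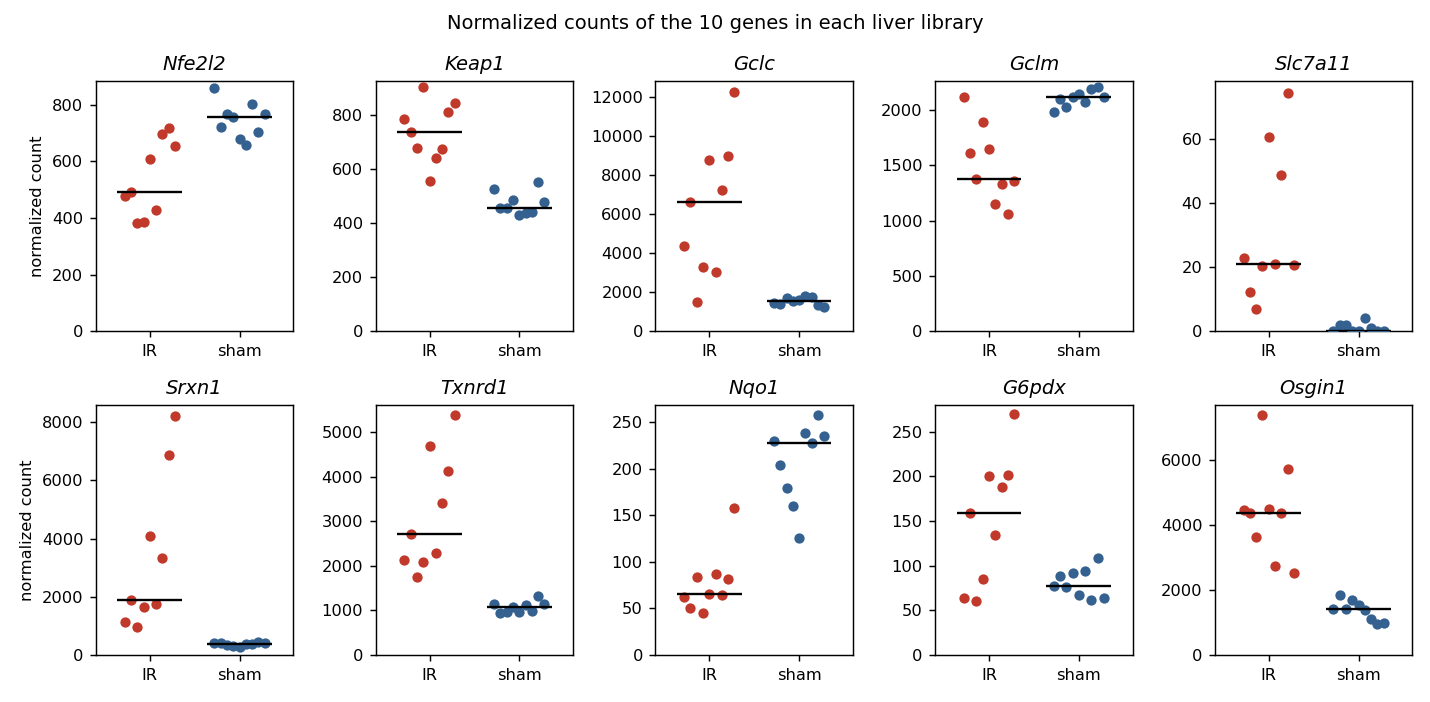
Normalized count (vertical axis, linear, from 0) of each of the 10 genes in the 9 IR libraries (red) and the 9 sham libraries (blue), with black lines at the medians; the sideways spread of points has no meaning. The IR points of Keap1, Slc7a11, Srxn1, Txnrd1 and Osgin1 all lie above the sham points, those of Gclm and Nqo1 lie mostly below them, and the IR points of Srxn1 and Gclc are spread over more than 8-fold.

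The antioxidant response element has a core of TGACNNNGC, which reads GCNNNGTCA on the opposite strand. RefSeq promoter windows of GRCm38.p6, which run from 250 bases before to 50 bases after a transcription start, were available for 9 of the 10 genes, and Gclc had none. The core occurred, on either strand, in a window of 5 of these 9 genes, and in 14.0% of the 27025 genes of the table. The matches are printed because they are the only stretches in these windows that spell this core. Other forms of the element were not searched for. They are given 5′ to 3′ on the strand of the gene, with the core in capitals and 10 bases on each side, and in the order in which the genes are described.
Nfe2l2: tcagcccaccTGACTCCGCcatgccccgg
Gclm: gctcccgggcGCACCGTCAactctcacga
Srxn1: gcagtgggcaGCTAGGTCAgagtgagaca
Txnrd1: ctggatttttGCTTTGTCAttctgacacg
G6pdx: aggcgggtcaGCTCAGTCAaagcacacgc
The Nfe2l2 stretch lies at chr2:75704885-75704913 on the minus strand, and its core begins 240 bases before the start. The Gclm stretch is chr3:122245413-122245441 on the plus strand, with the core 134 bases before the start. The Srxn1 core begins at base 29 counted from the start, within chr2:152105542-152105570 on the plus strand. That of Txnrd1 lies 92 bases before the start, within chr10:82859104-82859132 on the plus strand, in 1 of its 3 windows. That of G6pdx lies 57 bases before the start, within chrX:74428919-74428947 on the minus strand. Nfe2l2 was the 1 gene with the core on its own strand, where 7.29% of all genes had it. The 5 genes with a match include 3 that were higher in IR livers (Srxn1, Txnrd1 and G6pdx) and 2 that were lower (Nfe2l2 and Gclm). The windows of Keap1, Nqo1, Slc7a11 and Osgin1 do not contain this core, which says nothing about other forms of the element or about sites elsewhere.

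The transcript of the factor itself was lower after ischemia-reperfusion, and that of its inhibitor was higher. Nfe2l2 (ENSMUSG00000015839; GRCm38 chromosome 2, 75675513 to 75704641, minus strand) codes for NRF2. It had 382 to 718 normalized counts in IR livers, with a median of 492, against 659 to 859 in sham livers, with a median of 757. Of the 9 IR libraries, 7 lay below every sham library and the other 2 overlapped the sham range. The mean was 538 ± 133 in IR livers and 746 ± 62.8 in sham livers (SD, n = 9 each), a log2 difference of -0.51 (95% interval -0.76 to -0.25; limma, Benjamini-Hochberg adjusted p = 7.73e-04). This call depended on the scaling. With equal library sums the log2 difference was -0.27, with an adjusted p of 0.119 from limma. The distance of Nfe2l2 from the median of all genes stayed at -0.52. Scaling moves that median and the gene alike, so this distance could hardly have changed and does not bear on the call.

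Keap1 (ENSMUSG00000003308; chromosome 9, 21229730 to 21239361, minus strand) codes for the adaptor that marks NRF2 for degradation. Its levels were 556 to 901 normalized counts in IR livers, with a median of 735, against 428 to 553 in sham livers, with a median of 455. Every IR library was above every sham library. Means of 736 ± 109 in IR and 473 ± 42.4 in sham livers (SD, n = 9 each) gave a log2 difference of 0.63 (95% interval 0.44 to 0.81; limma adjusted p = 1.72e-06). Gm16754, an antisense RNA that shares 10.9% of the Keap1 exon bases, averaged 15.2 in IR and 3.41 in sham livers, and without strand information its reads cannot be told apart from those of Keap1.

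Among 17 partners and regulators of NRF2, 16 were tested. Of these, 10 were higher and 2 lower in IR livers, beside 38.3% and 37.6% of all genes tested. The list had a median log2 difference of 0.60. The largest difference was in Syvn1, which codes for HRD1, a ubiquitin ligase of the endoplasmic reticulum that also degrades NRF2. It averaged 2782 ± 486 normalized counts in IR and 283 ± 38.8 in sham livers (SD, n = 9 each; log2 difference 3.28; limma adjusted p = 3.30e-15). The small MAF genes Maff and Mafk, whose products pair with NRF2, were higher by 1.48 and 1.43 on the log2 scale, with limma adjusted p-values of 0.0149 and 1.39e-05. The third small MAF gene, Mafg, had a difference of 0.25 and was not called (limma adjusted p = 0.0549). Sqstm1, whose product p62 binds KEAP1 and takes it to autophagy, averaged 8719 ± 2965.5 in IR and 3494 ± 458 in sham livers (SD, n = 9 each; log2 difference 1.25; limma adjusted p = 7.34e-07). Cul3 and Rbx1, which code for the scaffold and the RING subunit of the KEAP1 ligase, were the 2 lower genes, at -0.23 and -0.69. Only 1 partner was called lower when IR library 1, 3, 4 or 6, or sham library 1, 4, 6, 7, 8 or 9, was left out, and 3 were when IR library 5 or 8 was. Bach1, which codes for a repressor at the same response elements, had a difference of -0.46 that did not pass the test (limma adjusted p = 0.102).

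The subunits of the enzyme that starts glutathione synthesis differed in opposite directions. Gclc (ENSMUSG00000032350; chromosome 9, 77754535 to 77794485, plus strand) codes for the catalytic subunit of glutamate-cysteine ligase. It ranged from 1477 to 12250 normalized counts in IR livers, with a median of 6614, against 1257 to 1795 in sham livers, with a median of 1530. Of the IR libraries, 8 were above every sham library, and IR library 3, by its header number, lay inside the sham range. Gclc averaged 6218 ± 3468 in IR and 1536 ± 179 in sham livers (SD, n = 9 each), a log2 difference of 1.78 (95% interval 1.143 to 2.41; limma adjusted p = 2.82e-05).

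Gclm (ENSMUSG00000028124; chromosome 3, 122245557 to 122270732, plus strand) codes for the modifier subunit, which lowers the enzyme's sensitivity to feedback by glutathione. It had 1055 to 2114 normalized counts in IR livers, with a median of 1375, against 1985 to 2203 in sham livers, with a median of 2119. The sham libraries were tightly grouped, and 8 of the 9 IR libraries lay below all of them, IR library 1 being the exception. Its means were 1503 ± 345 in IR and 2106 ± 72.3 in sham livers (SD, n = 9 each), with a log2 difference of -0.52 (95% interval -0.75 to -0.29; limma adjusted p = 2.43e-04). Gclm remained lower with equal library sums, at -0.28, with a limma adjusted p of 0.0131.

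Slc7a11 (ENSMUSG00000027737; chromosome 3, 49892526 to 50443614, minus strand) codes for xCT, the transporter that exchanges glutamate for cystine and so brings in the cysteine that limits glutathione synthesis. Normalized counts were 6.85 to 74.5 in IR livers, with a median of 21.1, against 0 to 4.14 in sham livers, with a median of 0. The lowest IR library was above the highest sham library, and 5 of the 9 sham libraries had no read of the gene. The whole difference rests on 330 reads over the 9 IR libraries and 9 reads over the 9 sham libraries. No p-value is given for Slc7a11, since a gene so low in sham livers enters the test only if IR livers are higher. Its log2 difference of 3.97 is on a scale of normalized count + 1, and it was 2.40 with a pseudocount of 5 and 4.92 in DESeq2.

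Of 17 genes of glutathione synthesis and use, these 3 included, 16 were tested. In IR livers 7 were higher and 6 lower, beside 38.3% and 37.6% of all genes tested. The median log2 difference of the list was 0.24. The members of the list with the largest differences after Slc7a11 went both ways. Chac2, whose product degrades glutathione, averaged 79.5 ± 27.1 normalized counts in IR and 558 ± 74.1 in sham livers (SD, n = 9 each; log2 difference -2.86; limma adjusted p = 1.16e-11). Cth, which codes for the enzyme that makes cysteine from cystathionine, averaged 845 ± 238 in IR and 6115 ± 2398 in sham livers (SD, n = 9 each; -2.80; limma adjusted p = 6.06e-10). Gpx3, which codes for a secreted glutathione peroxidase, was higher, with 420.0 ± 173 in IR and 61.1 ± 9.92 in sham livers (SD, n = 9 each; 2.70; limma adjusted p = 5.98e-12). Slc3a2, the heavy chain that partners xCT at the membrane, is not among the 4 genes that the naming rule picks here and was named after its value was seen. It was higher by 1.97 on the log2 scale (limma adjusted p = 2.09e-10).

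In the thioredoxin branch, the RNAs of 2 recycling enzymes rose and those of 5 of 6 peroxiredoxins fell. Srxn1 (ENSMUSG00000032802; chromosome 2, 152105516 to 152111376, plus strand) codes for sulfiredoxin, which repairs over-oxidized peroxiredoxins. It had 951 to 8208 normalized counts in IR livers, with a median of 1877, against 283 to 461 in sham livers, with a median of 381. The lowest IR library was above the highest sham library, and the IR libraries themselves differed by up to 8.63-fold. The mean of 3325 ± 2620 in IR livers was 8.91 times the 373 ± 54.1 of sham livers (SD, n = 9 each), with a log2 difference of 2.78 (95% interval 2.05 to 3.52; limma adjusted p = 7.45e-07).

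Txnrd1 (ENSMUSG00000020250; chromosome 10, 82833951 to 82897712, plus strand) codes for the cytosolic thioredoxin reductase, which passes electrons from NADPH to thioredoxin. Its values were 1751 to 5390 normalized counts in IR livers, with a median of 2702, against 935 to 1311 in sham livers, with a median of 1071. Again no library of one surgery overlapped the other. Txnrd1 averaged 3175 ± 1298 in IR and 1068 ± 121 in sham livers (SD, n = 9 each), a 2.97-fold ratio of means and a log2 difference of 1.48 (95% interval 1.09 to 1.86; limma adjusted p = 3.90e-07).

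Across the 16 genes of the thioredoxin and peroxiredoxin system, all tested, 3 were higher (Srxn1, Txnrd1 and Sesn2) and 11 lower in IR livers. The shares over all genes tested were 38.3% and 37.6%, and the median log2 difference of the list was -0.59. The lower genes named by size code for peroxiredoxins, which reduce hydrogen peroxide. Prdx4, of the endoplasmic reticulum, averaged 741 ± 124 normalized counts in IR and 2597 ± 304 in sham livers (SD, n = 9 each; log2 difference -1.82; limma adjusted p = 2.22e-12). Prdx3, of mitochondria, averaged 960.0 ± 165 in IR and 3337 ± 530.2 in sham livers (SD, n = 9 each; -1.80; limma adjusted p = 1.13e-11). Prdx1, of the cytosol and often listed as an NRF2 target, averaged 3413 ± 558 in IR and 10641 ± 1669 in sham livers (SD, n = 9 each; -1.65; limma adjusted p = 1.21e-10).

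Nqo1, a gene often used as a readout of NRF2 activity, was lower in IR livers. Nqo1 (ENSMUSG00000003849; chromosome 8, 107388225 to 107403206, minus strand) codes for a reductase that turns quinones into hydroquinones. It had 44.9 to 158 normalized counts in IR livers, with a median of 65.0, against 126 to 258 in sham livers, with a median of 227. Of the IR libraries, 8 lay below every sham library, and IR library 9 lay inside the sham range. Means of 77.3 ± 33.6 in IR and 206 ± 43.2 in sham livers (SD, n = 9 each) gave a log2 difference of -1.47 (95% interval -1.87 to -1.07; limma adjusted p = 7.51e-07). By size of difference it ranked 1084 from the low end of the 12686 genes tested.

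G6pdx (ENSMUSG00000031400; chromosome X, 74409483 to 74429194, minus strand) codes for glucose-6-phosphate dehydrogenase, which makes NADPH in the first step of the pentose phosphate pathway. Its normalized counts were 60.7 to 270 in IR livers, with a median of 159, against 61.0 to 109 in sham livers, with a median of 77.3. The groups overlapped more than for the other genes: 6 IR libraries were above every sham library, 1 was below them all and 2 lay within the sham range. G6pdx averaged 151 ± 71.5 in IR and 80.9 ± 15.9 in sham livers (SD, n = 9 each), with a log2 difference of 0.75 (95% interval 0.22 to 1.28; limma adjusted p = 0.0111). It shares 13.6% of its exon bases with Ikbkg on the other strand, which averaged 799 ± 195 in IR and 566 ± 43.4 in sham livers. Since strand is not stated for the counting, reads in the shared bases cannot be told apart.

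Of 12 genes of NADPH supply, all tested, 3 were higher and 6 lower in IR livers, beside 38.3% and 37.6% of all genes tested. The median log2 difference of the list was -0.30. H6pd, the form of the first pentose phosphate enzyme found in the endoplasmic reticulum, averaged 10136 ± 1210.5 normalized counts in IR and 2349 ± 245 in sham livers (SD, n = 9 each; log2 difference 2.11; limma adjusted p = 1.07e-13). Pgd, which codes for the next NADPH-making enzyme of the cytosolic pathway, averaged 1472 ± 618 in IR and 522 ± 125 in sham livers (SD, n = 9 each; 1.40; limma adjusted p = 9.68e-06). Idh1, the cytosolic isocitrate dehydrogenase, was lower, with 2388 ± 627 in IR and 9724 ± 1168 in sham livers (SD, n = 9 each; -2.07; limma adjusted p = 1.07e-10). Rpe, whose product acts on pentose phosphates without making NADPH, had a log2 difference of -1.51 (limma adjusted p = 1.49e-11).

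Osgin1 (ENSMUSG00000074063; chromosome 8, 119434124 to 119446256, plus strand) codes for an oxidative stress-induced growth inhibitor. It had 2531 to 7377 normalized counts in IR livers, with a median of 4375, against 950.2 to 1833 in sham livers, with a median of 1416. The lowest IR library was above the highest sham library. Its mean of 4412 ± 1477 in IR livers was 3.22 times the 1370 ± 305 of sham livers (SD, n = 9 each), a log2 difference of 1.65 (95% interval 1.27 to 2.03; limma adjusted p = 5.54e-08).

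In an exact two-sided permutation test, in which all 48620 assignments of 9 libraries to each surgery were enumerated, Keap1, Srxn1, Txnrd1 and Osgin1 each gave p = 4.11e-05, the smallest p this test can give. The exact permutation p was 8.23e-05 for Nqo1, 0.000206 for Gclm, 0.000247 for Gclc, 0.000699 for Nfe2l2 and 0.0165 for G6pdx. These are unadjusted p-values of 1 gene each.

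**Figure D2:**
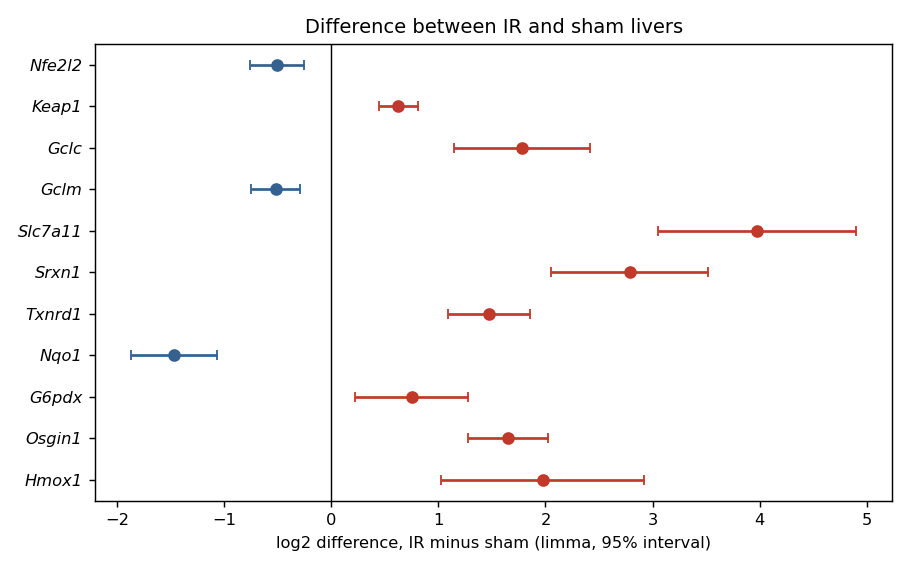
Log2 difference of IR minus sham livers (horizontal axis, on the scale of log2 of normalized count + 1) for the 10 genes and Hmox1, with 95% intervals from limma; red marks a higher and blue a lower level in IR livers. Slc7a11 at 3.97 and Srxn1 at 2.78 lie farthest to the right, Nqo1 at -1.47 is the lowest, and the intervals of Nfe2l2 and Gclm end at -0.25 and -0.29.

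Other genes commonly listed as NRF2 targets were more often lower than higher. Of 31 such genes 30 were tested, of which 9 were higher and 16 lower in IR livers, with a median log2 difference of -0.38. Over all genes tested, 38.3% were called higher and 37.6% lower. The list had 10 higher and 13 lower genes with equal library sums, and 8 higher and 17 lower with upper quartile scaling. Hmox1, which codes for the heme-degrading heme oxygenase 1, had 363 to 5874 normalized counts in IR livers, with a median of 1136, against 287 to 441 in sham livers, with a median of 347. In 8 of the 9 IR libraries it was above every sham library, and its log2 difference was 1.97 (95% interval 1.03 to 2.92; limma adjusted p = 6.41e-04). The glutathione S-transferase genes, whose products join glutathione to electrophiles, went both ways. Gsta1 averaged 60.8 ± 55.5 normalized counts in IR and 4.76 ± 4.998 in sham livers (SD, n = 9 each; log2 difference 3.18), passed the filter only through the IR livers and is given with no test, and its reads may be split with its close paralog Gsta2. Gsta2 was itself lower, with a log2 difference of -2.36, and was named after its value was seen. Gsta3 averaged 4047 ± 1322 in IR and 31465 ± 5517 in sham livers (SD, n = 9 each; -3.01; limma adjusted p = 4.55e-12), and Gstm3 averaged 68.0 ± 29.8 in IR and 525 ± 190 in sham livers (SD, n = 9 each; -2.97; limma adjusted p = 3.30e-10). Ces1g, a carboxylesterase gene with high levels in hepatocytes, had a log2 difference of -2.43 (limma adjusted p = 1.17e-09). Beside these falls, 10 of 13 hepatocyte markers were lower too, with a median log2 difference of -1.139, and their part in them was not tested.

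**Figure D3:**
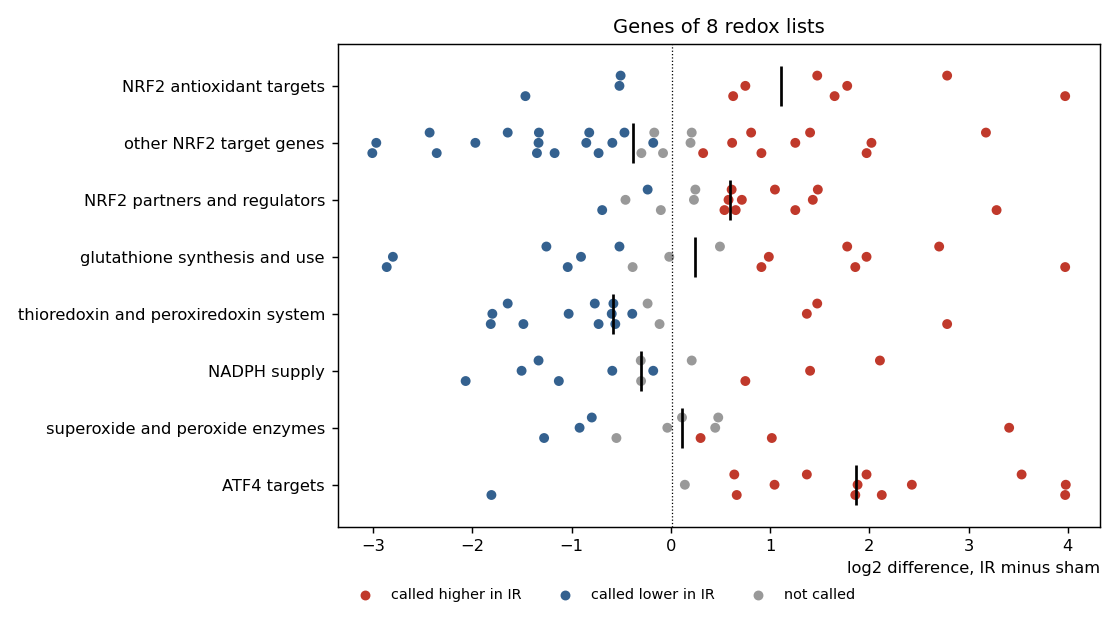
Log2 difference of IR minus sham livers (horizontal axis) for each tested gene of 8 lists, red where called higher, blue where called lower and grey where not called, with black bars at the list medians and a dotted line at the median of all genes, 0.02. The 10 genes described here have a median of 1.11, the other NRF2 targets -0.38 and the ATF4 targets, listed with Atf4 itself, 1.87. Some genes belong to more than 1 list.

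A second stress regulator shares Slc7a11 with NRF2. ATF4, a transcription factor of the integrated stress response, is known to raise amino acid uptake and synthesis. Of 14 genes listed for it, Atf4 itself among them and all tested, 12 were higher and 1 lower in IR livers. Over all genes tested the shares were 38.3% and 37.6%. The list had a median log2 difference of 1.87. Without Slc7a11 and Asns, both low in sham livers, 10 of 12 were higher. Asns, which codes for asparagine synthetase, averaged 114 ± 82.1 normalized counts in IR and 8.43 ± 5.12 in sham livers (SD, n = 9 each; log2 difference 3.54), passed the filter only through the IR livers and is given with no test. Psat1, of serine synthesis, was higher by 2.43 (limma adjusted p = 5.77e-06), and Atf3, which codes for a stress-induced transcription factor, by 3.98 (limma adjusted p = 6.64e-06). Vldlr was the 1 lower gene, at -1.81 (limma adjusted p = 0.0153), and was not called by edgeR or DESeq2.

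Among 13 genes that make or remove superoxide and peroxide, 11 were tested, 3 were higher and 3 lower in IR livers, and the median log2 difference was 0.11. Leaving out IR library 1 or 3 gave 5 higher genes. Among all genes tested, 38.3% were called higher and 37.6% lower. Cat, which codes for catalase, averaged 9132 ± 3254 normalized counts in IR and 21055 ± 1316 in sham livers (SD, n = 9 each; log2 difference -1.28; limma adjusted p = 3.77e-07). Sod1, the cytosolic superoxide dismutase, averaged 6724 ± 855 in IR and 12697 ± 1349 in sham livers (SD, n = 9 each; -0.92; limma adjusted p = 2.03e-08). Nos2, the inducible nitric oxide synthase, averaged 44.96 ± 53.8 in IR and 1.18 ± 0.962 in sham livers (SD, n = 9 each; 3.41), passed the filter only through the IR livers and is given with no test. Ncf4, a subunit of the phagocyte NADPH oxidase, was higher by 1.02 (limma adjusted p = 6.59e-05), beside neutrophil markers that summed to a median of 1452 in IR and 154 in sham livers.

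The marker lists moved as follows, beside 38.3% of all genes tested called higher and 37.6% called lower. The 4 neutrophil markers with the largest differences were Il1r2 (6.23), Retnlg (5.55), Trem1 (4.92) and Mmp8 (4.65), all log2 differences of IR over sham and all genes that passed the filter only through the IR livers. In 7 of the 11 tested neutrophil markers the sham mean was under 10, and of the other 4 markers 3 were higher and 1 lower. Of 12 macrophage and Kupffer cell markers 2 were higher (Marco and Cd68) and 9 lower, with Vsig4 at -2.31 and Timd4 at -1.87, both markers of resident Kupffer cells. Among 5 tested cholangiocyte markers 4 were higher, with Sox9 at 5.22 and Spp1 at 2.98, and both genes can also be made by injured hepatocytes. All 6 tested lymphocyte markers were lower, with Ms4a1, of B cells, at -4.25, but each passed the filter only through the sham livers and so had to differ. Of 9 sinusoidal endothelial markers 2 were higher (Stab1 and Lyve1) and 5 lower, with Clec4g at -2.05, and only 1 of the 2 was higher when IR library 3, 5, 7, 8 or 9, or sham library 2, 3, 4, 6 or 8, was left out. Of 9 stellate cell markers 5 were higher and 3 lower, with Col1a1 at 3.26 and Lrat at -1.89. The sum of these 9 markers had a median of 3126 normalized counts in IR and 4383 in sham livers. Among 6 tested erythroid markers 2 were lower (Klf1 and Hbb-bt) and none was called higher by limma, where edgeR and DESeq2 each called 1 higher, as did limma when IR library 3, 6 or 9 was left out.

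The levels of the genes relative to each other can be compared per kilobase of exon. In IR livers, Gclc had the highest mean level, at 1651 ± 921 normalized counts per kilobase, with Osgin1 at 1650.0 ± 552, and these neighbours did not differ beyond their spread. Srxn1 followed at 1179 ± 929, a spread that reached Gclc and Osgin1 above it and Txnrd1, at 448 ± 183, below it. Gclm came next at 239 ± 54.8, with a spread that overlapped that of Txnrd1. Keap1 at 157 ± 23.3 and Nfe2l2 at 142 ± 35.1 also lay within each other's spread, as did Nqo1 at 49.8 ± 21.7 and G6pdx at 49.1 ± 23.2, above Slc7a11 at 2.30 ± 1.68. The order of means in sham livers was another. Osgin1 came first at 512 ± 114 and Gclc next at 408 ± 47.5, again with overlapping spread. Gclm followed at 335 ± 11.5, Nfe2l2 at 197 ± 16.6 and Txnrd1 at 151 ± 17.1. Nqo1 and Srxn1, at 49.8 and 1179 in IR livers, were side by side at 133 ± 27.8 and 132 ± 19.2 in sham livers. Keap1 at 101 ± 9.02, G6pdx at 26.3 ± 5.17 and Slc7a11 at 0.0748 ± 0.105 had the lowest sham levels (all SD, n = 9).

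IR livers differed among themselves more than sham livers did. The SD of the log2 values was larger in the IR libraries for 10 of the 10 genes, and for 75.5% of all genes tested. The median ratio of these SDs, IR over sham, was 2.88 for the 10 genes and 1.45 for all genes tested. The coefficient of variation of Srxn1 was 78.8% in IR and 14.5% in sham livers, and that of Gclc was 55.8% in IR and 11.6% in sham livers. Gclm, at 22.9% in IR and 3.44% in sham livers, had the steadiest sham level of the 10 genes.

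The spread was shared by some of the genes and not by others. IR libraries 5, 7, 8 and 9, by their header numbers, had the 4 highest values of Gclc, Srxn1, Txnrd1, G6pdx and Nfe2l2, and of Hmox1. In those libraries Srxn1 had 4099, 3342, 6890.5 and 8208 normalized counts, against 951 to 1877 in the other 5 IR libraries. Osgin1 and Keap1 were highest in IR library 4, Gclm in library 1 and Slc7a11 in library 8. Nfe2l2 in libraries 7 and 8 reached into the sham range, at 697 and 718 normalized counts, while in libraries 3 and 4 it had 382 and 385.

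**Figure D4:**
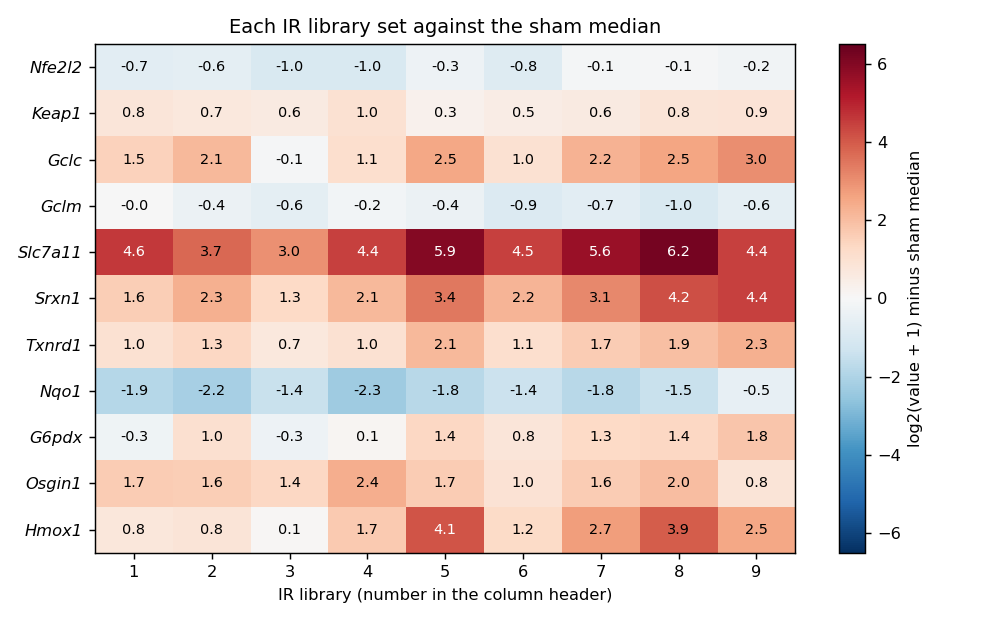
Difference of each IR library (columns, by header number) from the median of the sham libraries, in log2 of normalized count + 1, for the 10 genes and Hmox1 (one per line), with the value printed in each cell and red for higher, blue for lower. Gclc, Srxn1, Txnrd1, G6pdx and Hmox1 are darkest in libraries 5, 7, 8 and 9, Nfe2l2 is nearest to the sham median there, and Osgin1 peaks in library 4.

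Within the 9 IR libraries, 9 of the 45 pairs of genes had a Pearson r with an adjusted exact permutation p under 0.05, all of them positive, and all 9 lay among Nfe2l2, Gclc, Srxn1, Txnrd1 and G6pdx. In the 9 sham libraries 1 of 45 pairs passed, and p-values were adjusted over all 90 pairs. The closest pair in IR livers was Srxn1 with Txnrd1, both of the thioredoxin branch, with r = 0.957 (exact permutation p = 1.79e-04, adjusted 0.0140) and Spearman rho = 0.967 (exact permutation p = 1.65e-04, adjusted 0.00496). Without the 2 libraries farthest from the median of Srxn1, r was again 0.957. Gclc with Txnrd1 had r = 0.922 and rho = 0.933 (exact permutation p = 4.66e-04 and 7.50e-04), and Srxn1 with G6pdx had r = 0.913 and rho = 1 (exact permutation p = 8.93e-04 and 5.51e-06). Among the 9 pairs, 3 joined the RNA of the factor to that of a target. Nfe2l2 had r = 0.884 with Gclc, 0.884 with Txnrd1 and 0.870 with Srxn1, with adjusted exact permutation p-values of 0.0226, 0.0374 and 0.0374. Its rho with these genes was 0.900, 0.850 and 0.867, and by rho the pair with Txnrd1 missed the threshold, with an adjusted exact permutation p of 0.0547. In all 9 pairs r was at least 0.874 without the 2 farthest libraries. The pair of Nfe2l2 and G6pdx had r = 0.819, which did not pass (adjusted exact permutation p = 0.0787), and rho = 0.867, which did (adjusted exact permutation p = 0.0451). How many other pairs of genes reach such r values in the IR libraries was not tested. The values therefore do not show a relation particular to the factor and its targets. In the likeness measure given below, Nfe2l2 ranked 422 of 12686 genes, so many other genes followed the targets as closely.

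Keap1, Gclm, Slc7a11, Nqo1 and Osgin1 were in none of the pairs that passed in IR livers. Gclc and Gclm, the subunits of 1 enzyme, had r = -0.137 with each other (exact permutation p = 0.726, adjusted 0.907). Nqo1 and Osgin1 had the lowest r in IR livers, -0.774, which did not pass (exact permutation p = 0.0149, adjusted 0.103) and was -0.361 without the 2 farthest libraries. The pair that passed in sham livers was Nqo1 with Srxn1, with r = 0.923 (exact permutation p = 3.22e-04, adjusted 0.0140), but its rho of 0.833 did not pass (adjusted exact permutation p = 0.0676) and r was 0.697 without the 2 farthest libraries. The same pair had r = 0.526 in IR livers (exact permutation p = 0.145). Whether r differed between the surgeries was not tested.

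Technical measures and cell markers were set beside the same libraries, as values with no test. The size factors by which the counts of IR libraries 5, 7, 8 and 9 had been divided were 1.15, 1.05, 1.34 and 1.16, against 0.956, 1.06, 1.02, 0.979 and 1.09 in IR libraries 1, 2, 3, 4 and 6. Neutrophil markers summed to 3081, 2795, 4925 and 1452 normalized counts in libraries 5, 7, 8 and 9, against 1278, 930, 417, 1290 and 1516 in libraries 1, 2, 3, 4 and 6. Cholangiocyte markers summed to 14618, 8805, 7296 and 4524 in libraries 5, 7, 8 and 9, against 2074, 3366, 850, 3918 and 3612 in the other 5. The 4 cholangiocyte sums of libraries 5, 7, 8 and 9, on average mostly Spp1, were above those of the other 5. Normalized counts over all genes summed to 1.01e+07, 9.72e+06, 9.35e+06 and 9.09e+06 in libraries 5, 7, 8 and 9. In libraries 1, 2, 3, 4 and 6 they summed to 1.16e+07, 1.05e+07, 1.16e+07, 1.15e+07 and 1.09e+07, all above those 4. The size factors overlapped, with library 7 below libraries 2 and 6, and so did the neutrophil sums, with library 9 below library 6. Hepatocyte markers overlapped too, at 845424, 653241, 651624 and 852680 in libraries 5, 7, 8 and 9, against 726377, 732681, 873171, 600971 and 957956 in the other 5. The part of these measures and of the genotypes in the relations was not tested. With equal library sums 10 pairs passed in IR livers, and with TMM scaling 9.

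**Figure D5:**
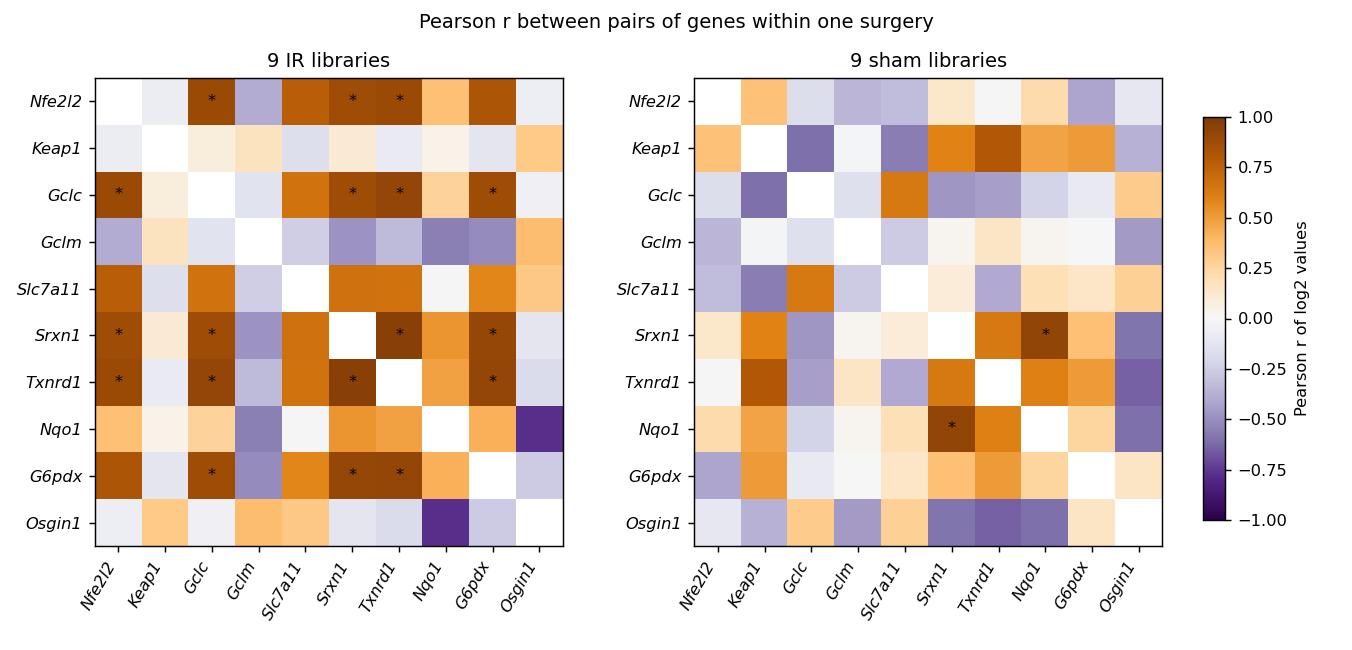
Pearson r of log2 of normalized count + 1 for each pair of the 10 genes, in the 9 IR libraries (left) and the 9 sham libraries (right), with brown for positive and purple for negative r and a star where the adjusted exact permutation p is under 0.05. The 9 starred pairs of IR livers lie among Nfe2l2, Gclc, Srxn1, Txnrd1 and G6pdx, and the 1 starred pair of sham livers is Nqo1 with Srxn1.

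The likeness of other genes to this pattern was measured as the Pearson r with the mean z-score of the 8 targets, over the 18 libraries after the mean of each surgery had been subtracted. It is a description over 12686 genes, with no test, and the libraries share depth and cell makeup. The 5 genes most alike were Myo9b (r = 0.954), Eepd1 (0.948), Fosl1 (0.939), Bcl2l1 (0.934) and Dusp5 (0.928). Fosl1 codes for a subunit of the AP-1 transcription factor, Bcl2l1 for the survival protein BCL-XL and Dusp5 for a phosphatase of the kinase ERK. Among the targets themselves, which enter the mean and so favour their own r, Gclc (0.921), Srxn1 (0.906), Txnrd1 (0.898) and G6pdx (0.836) had the highest r. By r they ranked 7, 18, 30 and 162 of the 12686 genes, so many genes outside the targets followed the mean as closely. Slc7a11 had an r of 0.690, Nqo1 0.33, Osgin1 0.0586 and Gclm -0.179. Nfe2l2, which is not part of the mean, had an r of 0.778 and ranked 422, and Keap1 had an r of 0.0714. Within 1 surgery, Nfe2l2 had 0.884 in the IR and -0.282 in the sham libraries. Gclc, Srxn1, Txnrd1 and G6pdx had 0.307, 0.487, 0.154 and 0.664 in the sham libraries, against 0.960, 0.934, 0.959 and 0.855 in the IR libraries. The 5 genes most alike had 0.514 to 0.849 in the sham and 0.940 to 0.979 in the IR libraries.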

How the data were processed

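Total RNA from liver was sequenced in 18 samples. Trimmomatic 0.33, STAR 2.5.0a, DESeq2 1.14 and the build GRCm38 are named in the submitters' processing notes. Which tool counted the reads, with which annotation, strand setting and filters, is not given in the sources used here. Per its name and values, the deposited table gives counts over genes after division by 1 size factor per library, a signal proportional to reads. Dividing by the smallest step returned whole reads (within 0.01) for 100% of values in every column. All columns were used.

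Genes with a mean of at least 10 normalized counts were tested with limma 3.58.1 (trend and robust options, R 4.3.3) on log2(value + 1), 9 IR against 9 sham, two-sided. Benjamini-Hochberg adjustment ran over all 12686 genes, and an adjusted p under 0.05 made a call. The reads in genes per library limit the precision of low genes. Single genes were also tested by exact permutation, and pairs by exact permutation of Pearson and Spearman correlations (Python 3.11.15, scipy 1.17.1). Levels per kilobase used the union of GENCODE vM21 exons, and promoters came from RefSeq (GRCm38.p6).

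The alternatives were pseudocounts of 0.5 and 5, no filter and a mean of at least 50, TMM, upper quartile and equal-sum scaling, library quality weights, limma without its trend and robust options, edgeR 4.0.16 and DESeq2 1.42.0 on the recovered reads, a block on the header number, and leaving out each library. Header numbers did not pair libraries (correlations of -0.0983 to 0.125 between libraries with the same number). The fit was tested on simulated data. The 10 genes and all lists were chosen with earlier results of these data known. From each list, up to 4 called genes with the largest absolute log2 difference are named, with Hmox1 and the 5 genes most alike. Mafg, Bach1, Cul3, Rbx1, Slc3a2, Sesn2, Gsta2, Vldlr, Marco, Cd68, Stab1 and Lyve1 lie outside this rule and were named after their values were seen.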

Additional observations from a re-analysis of the deposited data

Results flagged for a closer look

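Single libraries that stood apart from the others of their surgery were looked for in the 10 genes and Hmox1, in 22 groups of 9 libraries by Dixon's test at 95%, which sets the gap to the nearest library against the whole range. Chance alone marks about 1 in 20 groups, and 2 were found. In IR livers, the highest Nqo1 value, 158 normalized counts in IR library 9, stood apart with a gap of 0.626 of the range. In sham livers, the highest Slc7a11 value, 4.14 normalized counts, stood apart with a gap of 0.5002 of the range, at a depth where 5 of the 9 sham libraries had no read.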

How the results depend on the processing

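The counts of 7 higher and 3 lower genes among the 10 were kept under every alternative run except 2. With equal library sums 2 were lower, since Nfe2l2 lost its call (-0.27, limma adjusted p = 0.119), and Slc7a11 was not tested at a mean of at least 50. Each of the 10 genes kept its direction throughout. Over all genes edgeR called 5004 higher and 4701 lower, DESeq2 5011 and 4712, and limma with upper quartile scaling 4292 and 5305. Leaving out each library in turn gave 4744 to 4856 higher and 4682 to 4800 lower genes, and left 7 and 3 of the 10, 9 other NRF2 targets higher and 15 to 16 lower. The header numbers do not pair the libraries; a replicate block on them gave 4818 higher and 4737 lower genes and again 7 and 3, and no library correlated best with its own number. With the motif core counted on the gene strand only, 1 gene had it in place of 5. In sham livers, 2 pairs of genes passed with equal library sums, an alternative chosen after seeing the data, in place of 1. In the smaller lists, superoxide and peroxide genes called higher were 6 with equal library sums, 5 by edgeR and DESeq2 and 2 with upper quartile scaling or a mean of at least 50, in place of 3, and 3 to 5 when 1 library was left out. NRF2 partners called lower were 1 with no filter, equal library sums and edgeR and 3 with upper quartile scaling and quality weights, in place of 2, and 1 to 3 when 1 library was left out, with 1 in 10 of those 18 fits. Sinusoidal endothelial markers called higher were 1 with no filter, upper quartile scaling and quality weights, in place of 2, and 1 in 10 of the 18 fits. Low levels limit Slc7a11 most, with 9 reads in all sham livers.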

Other observations

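Ratios of 2 genes within a library do not depend on how libraries are scaled. The 3 given here pair a gene seen to be higher in IR livers with one seen to be lower, so that their separation follows from the choice, and they are values with no test. The ratio of Gclc to Gclm, the catalytic to the modifier subunit, was 1.07 to 9.04 in IR livers, with a median of 4.11, against 0.593 to 0.868 in sham livers, with a median of 0.734. That of Srxn1 to Nqo1 was 11.4 to 84.1 in IR livers, with a median of 37.5, against 1.59 to 2.25 in sham livers, with a median of 1.79. That of Keap1 to Nfe2l2 was 0.912 to 2.34 in IR livers, with a median of 1.495, against 0.547 to 0.785 in sham livers, with a median of 0.631. The log2 differences of IR minus sham livers were 2.30, 4.27 and 1.136. A ratio shows that the 2 genes changed unequally, not which of them changed.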
